A study of Mus musculus with 4 samples.

Results

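The subunits of AMP-activated protein kinase (AMPK) and LKB1, the kinase that activates it, were examined in 3T3-L1 cells, a mouse preadipocyte line that hormones induce to form adipocytes. The members were the 8 genes Prkaa1, Prkaa2, Prkab1, Prkab2, Prkag1, Prkag2, Prkag3 and Stk11, chosen by name, of 27597 named genes on the array. They were read by 11 probes of 41174. Confluent cells were induced with 10 μg/ml insulin, 1 μM dexamethasone and 0.5 μM IBMX, and RNA was taken on day 2. All 4 cultures held 0.1% DMSO, which was the only additive in the control. The other 3 received 100 μg/ml of an extract of bilberry, a fruit rich in anthocyanidins, or 100 nM of the anthocyanidins delphinidin or cyanidin. Each condition had 1 array and no replicate, so no difference below has a p-value. All 3 treatments were compared with the same DMSO array. The value after ± is the error that the scanner software gave for the spots, carried through to the ratio. It does not cover the spread between cultures.

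AMPK is a sensor of cellular energy built from a catalytic α subunit, a scaffolding β subunit that also binds glycogen, and a γ subunit that binds AMP, ADP and ATP. When ATP runs low, AMP binds the γ subunit, LKB1 phosphorylates the activation loop of the α subunit, and the active kinase restrains fatty acid, triglyceride and cholesterol synthesis while promoting fuel oxidation. In cultured preadipocytes AMPK activity is known for opposing adipocyte differentiation. The arrays measured mRNA, so they say nothing on phosphorylation or kinase activity.

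The isoform pairs on which the results turn are the α pair, Prkaa1 and Prkaa2, of which only the first was detected on all 4 arrays, and the β pair, Prkab1 and Prkab2, whose ratios to DMSO had opposite signs with each treatment, except under spike-in scaling, where both were negative with bilberry. The 250 bases before their annotated start sites, from RefSeq on GRCm38.p6 and written along the gene's strand, are shown to let the promoters of each pair be compared. Capitals mark the GC box GGGCGG or its reverse complement CCGCCC, with overlapping matches counted.
Prkaa1: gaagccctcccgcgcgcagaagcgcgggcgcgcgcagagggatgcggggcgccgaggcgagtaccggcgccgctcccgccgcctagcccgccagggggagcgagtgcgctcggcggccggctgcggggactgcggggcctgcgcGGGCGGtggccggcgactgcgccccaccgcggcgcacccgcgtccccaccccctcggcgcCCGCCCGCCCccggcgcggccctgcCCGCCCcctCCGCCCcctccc
Prkaa2: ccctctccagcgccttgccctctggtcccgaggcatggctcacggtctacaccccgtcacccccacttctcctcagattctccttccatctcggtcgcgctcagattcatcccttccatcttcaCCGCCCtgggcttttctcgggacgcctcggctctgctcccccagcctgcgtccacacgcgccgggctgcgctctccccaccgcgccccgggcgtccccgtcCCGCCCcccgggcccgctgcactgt
Prkab1: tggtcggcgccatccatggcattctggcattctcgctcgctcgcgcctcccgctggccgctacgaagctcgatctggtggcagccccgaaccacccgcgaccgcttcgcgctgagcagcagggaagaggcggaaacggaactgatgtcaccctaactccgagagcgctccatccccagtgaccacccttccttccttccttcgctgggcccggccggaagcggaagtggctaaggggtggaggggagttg
Prkab2: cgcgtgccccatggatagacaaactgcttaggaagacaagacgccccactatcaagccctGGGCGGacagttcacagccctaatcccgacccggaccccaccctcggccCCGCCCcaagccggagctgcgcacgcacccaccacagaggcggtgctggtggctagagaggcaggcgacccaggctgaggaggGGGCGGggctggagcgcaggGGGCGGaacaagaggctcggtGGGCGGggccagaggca

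These windows lie at chr15:5143611-5143860 on the plus strand for Prkaa1, chr4:105109899-105110148 on the minus strand for Prkaa2, chr5:116024429-116024678 on the minus strand for Prkab1 and chr3:97657962-97658211 on the plus strand for Prkab2. GC boxes numbered 5 for Prkaa1, 2 for Prkaa2, 0 for Prkab1 and 5 for Prkab2, and 32.7% of all 32851 promoters of this length held at least 1. Prkaa1 had 45 CpG dinucleotides in its window, against 24 for Prkaa2, 24 for Prkab1 and 18 for Prkab2, and the median over all promoters was 6. The TATA box TATAAA, searched on both strands, was in 12.4% of all promoters and in none of the windows of the 8 members. A match is a description of these letters and not a binding site.

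Signals were scaled to the 75th percentile of the array, a value of 861 on the DMSO array, 576 on that of bilberry, 1009 on that of delphinidin and 1016 on that of cyanidin. A probe counted as detected when the software called it well above background. This held for 58.4%, 55.3%, 60.6% and 60.0% of all probes on the DMSO, bilberry, delphinidin and cyanidin arrays. Scaling to the spike-in control probes instead would shift every log2 ratio by -1.53 under bilberry, 0.26 under delphinidin and 0.24 under cyanidin. Under that scaling 78.0% of all probes detected on both arrays, and 7 of the 8 member probes, were past 2-fold lower with bilberry, and 5, 3 and 3 of the 8 member ratios to DMSO took the other sign with bilberry, delphinidin and cyanidin. Directions below are therefore relative to the other probes of an array. The bilberry ratios also depended on the background correction. Normexp, a model of signal plus background, gave that array a fitted background mean of -345 when fitted on all spots and of -5.65 without the spots marked for local background, called the refitted normexp below. With the fit on all spots, probes detected on no array had high bilberry ratios too. Such probes of the genes Melk and Csf1r had log2 ratios to DMSO of 2.55 to 2.61, against 0.37 to 0.70 as processed here. All 10 adipocyte markers checked, among them Pparg, Fabp4 and Adipoq, and all 10 preadipocyte and fibroblast markers, among them Dlk1 and Pdgfra, were detected on each array. Fewer cells of a type and less RNA per cell cannot be told apart in such samples.

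Of the 11 AMPK and Stk11 probes, 8 were detected on each of the 4 arrays, against 52.1% of all probes. These 8 covered Prkaa1, Prkab1, Prkab2, Prkag1, Prkag2 and Stk11. No array gave a detected signal for Prkag3 or for the dimmer Prkag2 probe, and 35.5% of all probes were likewise detected on no array. Prkaa2 was well above background on the bilberry array alone. By the alternative rule of a positive and significant signal it was also detected with DMSO, as 1 of 9 member probes there. None of the 11 probes was saturated or marked as an outlier on any array. Detected on every array were thus 1 α, 2 β and 2 γ isoforms together with Stk11, with α2 in addition on the bilberry array.

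**Figure D1:**
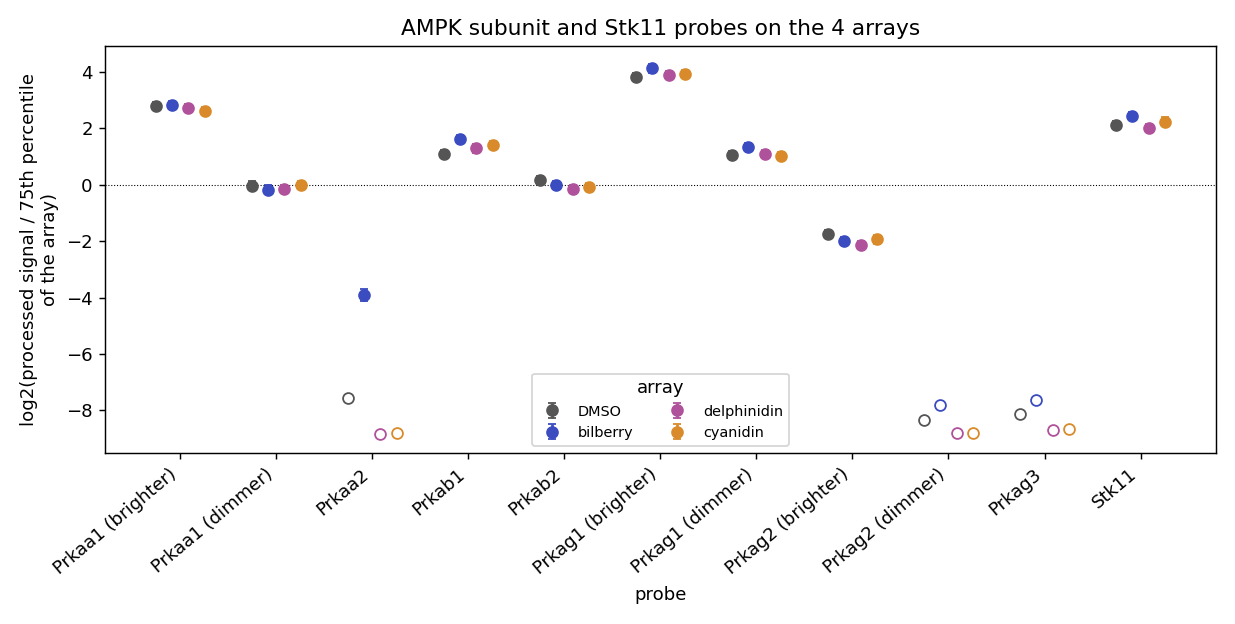
Scaled log2 signal (processed signal over the 75th percentile of the array) of the 11 probes on the 4 arrays, with the software's spot error as bars. Filled points are well above background and open points are not, and Prkaa2 has 1 filled point, with bilberry. Heights of different probes are not comparable.

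Against DMSO, 0 of the 8 probes measured on all arrays passed 2-fold with any treatment. Over all probes well above background on both arrays, the share past 2-fold was 11.2% for bilberry, 2.91% for delphinidin and 2.83% for cyanidin. The median log2 ratio of the 8 probes was 0.17 under bilberry, -0.08 under delphinidin and -0.00 under cyanidin, against 0.14, -0.04 and -0.02 over all probes. The bilberry median of the 8 turned to -0.02 under quantile normalization, -0.13 with normexp on all spots and -1.36 under spike-in scaling. With bilberry, 7 of the 8 lay inside the interquartile range of all probes, as did 5 under delphinidin and 7 under cyanidin. Ratios exceeded the software error for 5 probes with bilberry, 2 under delphinidin and 2 under cyanidin. For bilberry this count was 2 under quantile normalization, 3 with normexp on all spots, 4 with the refitted normexp and 8 under spike-in scaling.

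**Figure D2:**
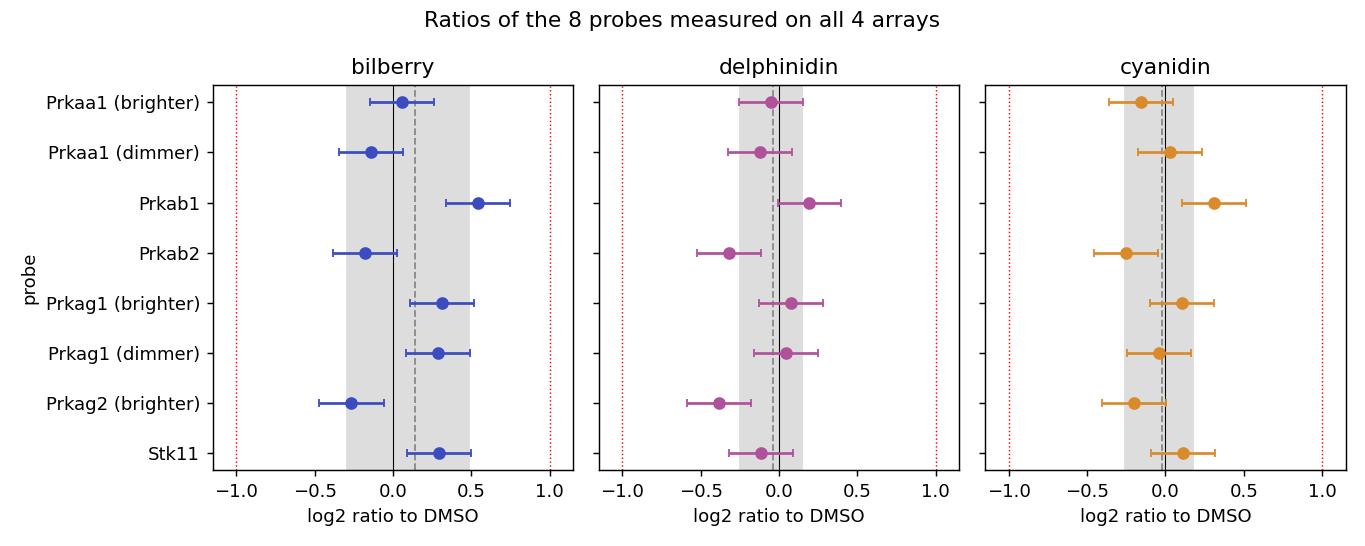
Log2 ratio to DMSO of the 8 probes detected on all 4 arrays, by treatment, with the propagated software error as bars. The grey band is the interquartile range of all probes, the dashed line their median and the dotted lines 2-fold, and all 8 points lie inside the dotted lines in each panel, where spike-in scaling would move 7 of the bilberry points past the lower one.

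The catalytic subunit α1, encoded by Prkaa1, was read by a pair of probes on chromosome 15 (mm8, the build of the files). The brighter probe, at chr15:5128641-5128700, had a processed signal of 5894 under DMSO, 4100 under bilberry, 6654 under delphinidin and 6244 under cyanidin. After scaling, its log2 ratios to DMSO were 0.06 ± 0.20 under bilberry, -0.05 ± 0.20 under delphinidin and -0.16 ± 0.20 under cyanidin. All 3 were smaller than the error. The bilberry value became -0.12 under quantile normalization and -0.49 with normexp on all spots, beyond the error of 0.20, and was 0.01 with the refitted normexp. The dimmer probe, whose interval chr15:5124365-5125906 spans 1542 bases where most of the other probes span 60, had signals of 843, 511, 907 and 1018 in the same order. Its ratios were -0.14 ± 0.20, -0.12 ± 0.20 and 0.03 ± 0.20. The ratios of both probes differed by no more than 0.20 ± 0.29, though by 0.39 with bilberry under normexp on all spots. Prkaa1 thus showed no change beyond the error with any treatment by either probe as processed here. Beside spike-in scaling, the exceptions were the brighter probe with bilberry under normexp on all spots and, with cyanidin, under quantile normalization, at -0.22.

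Prkaa2 encodes α2, the other catalytic subunit, best known from skeletal and heart muscle. Its probe, at chr4:104533035-104533094 on the minus strand, had a processed signal of 4.62 under DMSO, 38.3 under bilberry, 2.20 under delphinidin and 2.26 under cyanidin. The lowest signal of any detected probe was 13.0, 13.0, 10.9 and 10.9 on those arrays, so that only the bilberry value lay above it. With no requirement of detection Prkaa2 was the only member past 2-fold, higher with bilberry and lower with both anthocyanidins, where 13.9%, 6.88% and 7.37% of all probes passed with bilberry, delphinidin and cyanidin. With detection required on at least 1 of the arrays it passed with bilberry, as did 16.0% of all probes. The delphinidin and cyanidin values are substitutes that the software writes for spots at background. Set against the lowest detected level of the DMSO array, the bilberry level was at least 4.40-fold higher, at least 2.14-fold with the refitted normexp background and at least 1.52-fold with spike-in scaling.

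The bilberry signal of Prkaa2 was small in absolute terms. The spot's mean brightness was 295 over a local background of 248, and the software did not find the spot's outline on any of the 4 arrays. Probes detected with bilberry alone made up 0.619% of all probes, 255 in number, and 614 were detected with delphinidin alone. Prkaa2 lies in a central band of array rows, chosen with earlier results known, where the bilberry-alone share was 1.07%, against 0.278% in the other rows. Of the 40 spots around it, 20 were detected with bilberry and 20 with DMSO, and none with bilberry alone. Their median log2 ratio, over detected and undetected spots alike, was 0.39. The median of 0.14 over all probes covers only those detected on both arrays, so it is not on the same footing. Of 12 skeletal muscle markers, 3 were detected with bilberry and 5 with DMSO, and their summed level was 1.40 and 2.38 in units of the array's 75th percentile and 2.20 to 2.35 with the anthocyanidins. The order was the opposite with normexp on all spots, at 5.77 with bilberry and 2.96 with DMSO. Under that setting the sum of 6 endothelial markers, none detected on either array, rose likewise, from 0.41 with DMSO to 2.51 with bilberry. As processed here, Tnni2 and Tnnt3 made up most of the muscle sums. Their scaled log2 levels were 0.72 and -0.77 with DMSO and 0.19 and -2.86 with bilberry. No other muscle marker was above -4.14 on any array. Of these markers, Myod1, Myog, Myf5, Ckm, Myh1 and Myh4 were detected on no array. Tnnt3, Tnni2 and Acta1 were detected on all 4 arrays, Mb and Pygm on 2 each, and Myh2 with DMSO alone. The part of array position in the Prkaa2 signal was not tested.

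**Figure D3:**
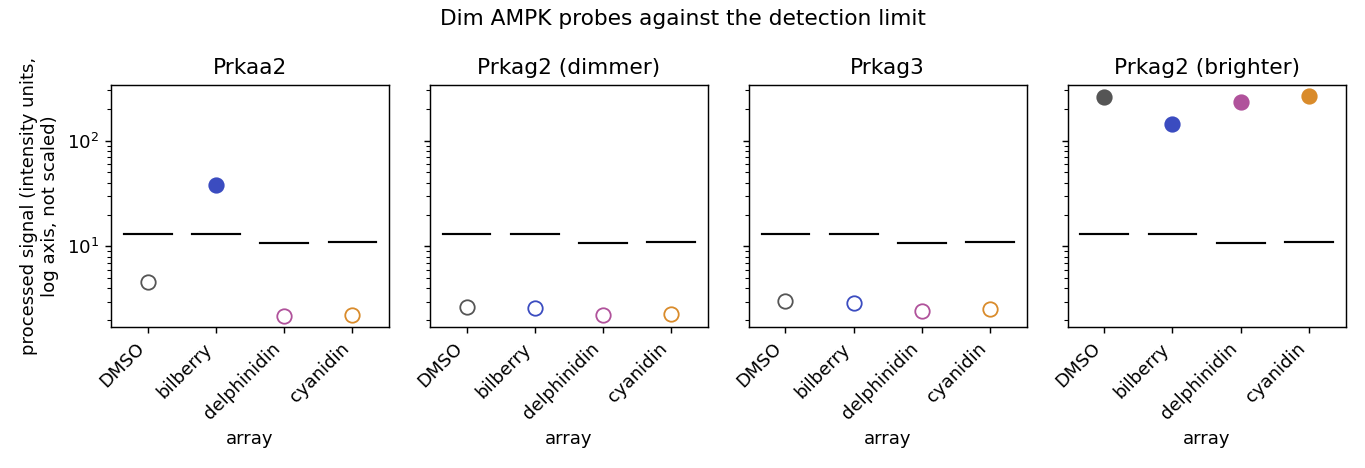
Processed signal (intensity units, log axis, not scaled) of the 3 probes not detected on all arrays and, for comparison, the brighter Prkag2 probe. Black bars give the lowest signal of any detected probe on that array, and filled points are well above background. The Prkaa2 point with bilberry, at 38.3, lies above its bar, and its other 3 points lie below theirs.

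The β subunits hold the α and γ subunits together. Prkab1 encodes β1 and was read at chr5:116275087-116275146 on the minus strand. Its processed signal was 1832 under DMSO, 1783 under bilberry, 2456 under delphinidin and 2679 under cyanidin. On the scaled log2 scale these are levels of 1.09, 1.63, 1.28 and 1.40, lowest with DMSO. The log2 ratio to DMSO was 0.54 ± 0.20 under bilberry, 0.19 ± 0.20 under delphinidin and 0.31 ± 0.20 under cyanidin, and the bilberry value turned to -0.99 under spike-in scaling and was 0.15, inside the error, with normexp on all spots and 0.50 with the refitted normexp. As processed here, the range of Prkab1 was the widest of any member measured on all arrays. With normexp on all spots other probes, among them those of Prkag2 and the brighter Prkaa1 probe, had wider ranges. Under spike-in scaling Prkab1 had the narrowest range of the member probes measured on all arrays. For Prkab1, 21.3% of all probes had a ratio at least as high with bilberry, 20.3% with delphinidin and 13.1% with cyanidin.

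Prkab2 encodes β2, known as the more abundant β subunit of skeletal muscle, and was read at chr3:97758325-97758384. Its processed signal was 964 under DMSO, 571 under bilberry, 905 under delphinidin and 956 under cyanidin. The scaled log2 levels of 0.16, -0.01, -0.16 and -0.09 placed DMSO highest. The log2 ratios of -0.18 ± 0.20, -0.32 ± 0.20 and -0.25 ± 0.20 kept their sign under every alternative scaling. Only those with delphinidin and cyanidin exceeded the error, which under spike-in scaling they did not, at -0.06 and -0.01.

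The change of Prkab1 relative to Prkab2 does not depend on how an array is scaled, since a scaling factor cancels between probes of the same array. Prkab1 minus Prkab2 was 0.72 ± 0.29 under bilberry, 0.51 ± 0.29 under delphinidin and 0.56 ± 0.29 under cyanidin, which are 1.64-fold, 1.43-fold and 1.48-fold shifts of the probe ratio. The shift had the same sign and exceeded the software error in all 3, which share the DMSO array, so that an unusual DMSO value of either probe would move all 3 together. With the normexp background fitted on all spots the bilberry shift was 0.30. The comparison of the β pair was chosen after its values were seen. The promoters printed above differ at this pair in GC boxes, 0 before Prkab1 and 5 before Prkab2. Whether this difference has any part in the shift was not tested.

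**Figure D4:**
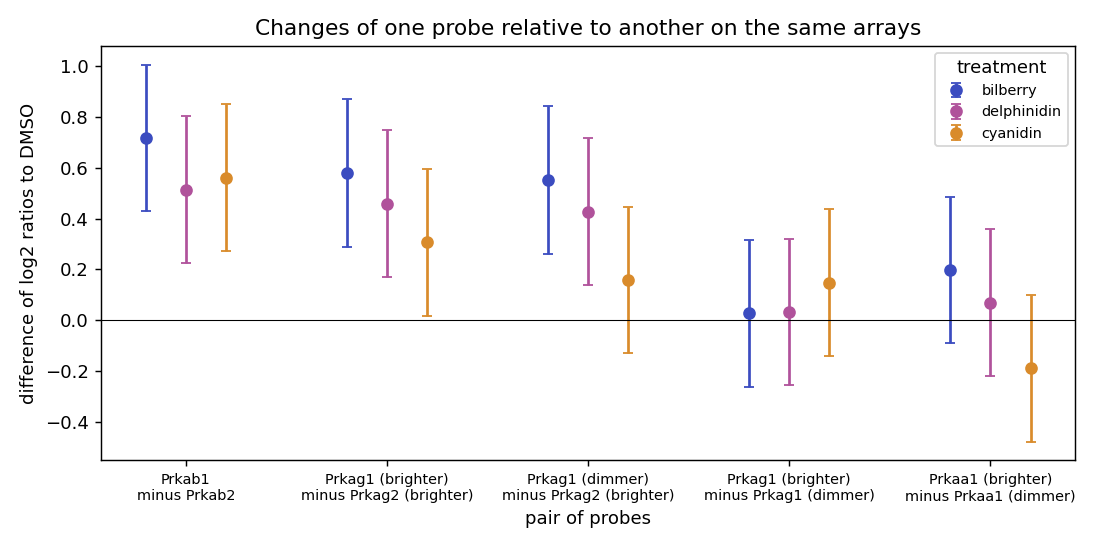
Difference between the log2 ratios to DMSO of 2 probes on the same arrays, by treatment, with the propagated software error as bars. Prkab1 minus Prkab2 lies at 0.51 to 0.72, while the 2 probes of Prkag1 and the 2 probes of Prkaa1 differ by less than their error. With normexp on all spots the bilberry values of Prkab1 minus Prkab2 and of the Prkaa1 probes would be 0.30 and 0.39.

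The γ subunits carry the nucleotide-binding sites. Prkag1 encodes γ1, the widely expressed isoform, and was read by probes at chr15:98641005-98641064 and chr15:98642589-98642648 on the minus strand. The brighter probe, the first of these, had a processed signal of 12032 under DMSO, 10003 under bilberry, 14840 under delphinidin and 15293 under cyanidin. Its log2 ratios were 0.31 ± 0.20, 0.07 ± 0.20 and 0.11 ± 0.20, and the bilberry ratio turned negative with normexp on all spots and under spike-in scaling. The dimmer probe had signals of 1781, 1453, 2149 and 2043. Its ratios were 0.29 ± 0.20, 0.04 ± 0.20 and -0.04 ± 0.20. Both probes of Prkag1 thus gave a bilberry value just beyond the error, which turned negative under the same 2 alternatives, and anthocyanidin values inside it. Under quantile normalization the brighter probe's bilberry ratio was 0.08, inside the error.

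Prkag2 encodes γ2, which has a long N-terminal extension in some isoforms and is known for inherited heart muscle disease. The brighter probe, at chr5:24372982-24373041 on the minus strand, had signals of 258 under DMSO, 144 under bilberry, 231 under delphinidin and 265 under cyanidin. The log2 ratios were -0.27 ± 0.21 under bilberry, -0.39 ± 0.21 under delphinidin and -0.20 ± 0.20 under cyanidin, and the bilberry value was inside the error with the refitted normexp, at -0.12, and under quantile normalization, at -0.16. It turned to 0.67 with normexp on all spots and the cyanidin value to 0.04 under spike-in scaling. With delphinidin, 14.9% of all probes lay at least as low. The dimmer probe, at chr5:24385603-24385662, was designed to another transcript and was at 2.26 to 2.64 on the 4 arrays, below the lowest detected signal on each.

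Relative to Prkag2, the brighter Prkag1 probe was shifted by 0.58 ± 0.29 under bilberry, 0.46 ± 0.29 under delphinidin and 0.31 ± 0.29 under cyanidin. With the dimmer Prkag1 probe the shifts were 0.55 ± 0.29, 0.43 ± 0.29 and 0.16 ± 0.29, so that the cyanidin value fell inside the error. The bilberry shifts reversed with normexp on all spots, to -0.94 for the brighter and -0.76 for the dimmer probe, and were 0.41 and 0.35 with the refitted normexp. Under quantile normalization the brighter probe's shifts with bilberry and cyanidin, 0.24 and 0.16, lay inside the error. Only the delphinidin shift thus exceeded the error by both probes under each background correction and quantile normalization. Prkag3 encodes γ3, known mainly from skeletal muscle. Its probe, at chr1:74674013-74674402, was at 2.44 to 3.05, below the lowest detected signal on each array.

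Stk11 encodes LKB1, the main activating kinase of AMPK and a tumor suppressor. Its probe, at chr10:79533662-79533721 on the plus strand, had a processed signal of 3760 under DMSO, 3082 under bilberry, 4068 under delphinidin and 4797 under cyanidin. The log2 ratios were 0.29 ± 0.20, -0.12 ± 0.20 and 0.11 ± 0.20, and those of bilberry and delphinidin changed sign under spike-in scaling, that of bilberry also with normexp on all spots. Under quantile normalization the bilberry ratio was 0.14, inside the error. Stk11 relative to the brighter Prkaa1 probe differed by 0.24 ± 0.29, -0.06 ± 0.29 and 0.27 ± 0.29, inside the error in each case. With normexp on all spots the bilberry and cyanidin values were 0.31 and 0.32, just beyond it, as was the cyanidin value with the refitted normexp. A probe of the neighbouring gene Cbarp, named Dos in the files, lies 73 bases away on the opposite strand. It had log2 ratios of 1.01 ± 0.20 under bilberry, 0.15 ± 0.20 under delphinidin and 0.04 ± 0.20 under cyanidin, so the neighbours had unlike values with bilberry. The Cbarp bilberry ratio was inside 2-fold under quantile normalization, at 0.88, with the refitted normexp, at 0.95, and with normexp on all spots, at 0.52, and turned to -0.52 under spike-in scaling.

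Delphinidin and cyanidin, which differ by an additional hydroxyl group on the B ring of delphinidin, were given at the same dose and time and form the only matched pair of compounds. Directly between their arrays, 0 of the 8 probes passed 2-fold, against 1.16% of all probes. The ratios of delphinidin to cyanidin ran from -0.23 ± 0.20 for Stk11 to 0.10 ± 0.20 for the brighter Prkaa1 probe. Stk11 was the only member whose difference exceeded the software error, and by a margin that was lost under quantile normalization, at -0.187 against an error of 0.204, and with both normexp fits, so that no member exceeded it there. Prkag2 had -0.19 ± 0.20, Prkab1 -0.11 ± 0.20 and Prkab2 -0.07 ± 0.20. With 1 array each no test and no interval over cultures could be made, so these values do not show that the compounds act alike. The bilberry dose is given by mass, so no difference between its values and those of the pure compounds was taken.

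By the root mean square difference of the 3 log2 ratios to DMSO, the genes most like Prkab1 were Mpdu1, at 0.0074, Reep4, at 0.0099, and Cdk14, at 0.013, among 14319 genes detected on all 4 arrays. Prkab1 was not set apart by this pattern, since 2499 genes lay within the software error of it. Only 4 arrays stand behind this likeness.

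The genes around AMPK were taken as lists, with each gene read by its brightest probe. The other kinases upstream of AMPK and the partners of LKB1, which include the pseudokinases Strada and Stradb, the scaffold Cab39 and the calcium-dependent Camkk2, were detected for 8 of 8 genes on all arrays. None passed 2-fold with any treatment, a size reached by 11.3% of all genes for bilberry, 3.23% for delphinidin and 3.05% for cyanidin. The median log2 ratio of the list was 0.19, -0.04 and -0.02 for the 3 treatments, against 0.17, -0.04 and -0.02 over all genes. With bilberry the median was 0.03 under quantile normalization and 0.01 with normexp on all spots, while under spike-in scaling it was -1.34 and 8 of 8 genes were past 2-fold lower. The value farthest from 0 was -0.51 ± 0.21 for Map3k7, the kinase TAK1, with bilberry, and it turned to 0.29 with normexp on all spots.

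AMPK-related kinases, which LKB1 also activates in most cases, had 12 of 13 genes with a value. Of the 10 measured with bilberry, 2 passed 2-fold, both higher, as did 4.66% of all genes. Nuak2, a kinase of the NUAK branch linked to stress and actomyosin, had scaled log2 levels of -2.16 under DMSO, -0.91 under bilberry, -1.35 under delphinidin and -1.57 under cyanidin. Its ratios of 1.24 ± 0.21, 0.80 ± 0.21 and 0.58 ± 0.21 all exceeded the error, and the bilberry value turned to -0.29 under spike-in scaling. It stayed past 2-fold with both normexp fits and quantile normalization, at 1.08 to 1.46. Melk, a kinase that peaks in dividing cells and is not an LKB1 target, had ratios of 1.098 ± 0.20, 0.99 ± 0.20 and 0.67 ± 0.20, and the first turned to -0.43 under spike-in scaling and was inside 2-fold, at 0.74, with normexp on all spots and just past it, at 1.003, with the refitted normexp. A further Melk probe was detected on no array. The median of the list was 0.36 under bilberry, -0.10 under delphinidin and 0.07 under cyanidin. With bilberry it was 0.22 with normexp on all spots and -1.17 under spike-in scaling. The delphinidin median turned to 0.17 under spike-in scaling, and the cyanidin median to -0.14 with all probes of a gene averaged.

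AMPK substrates were measured for 21 of 22 genes, with medians of 0.37, 0.02 and 0.07. Srebf1, the gene of the lipogenic transcription factor SREBP-1, had no value because its spot was marked on the DMSO array. With marked spots kept its ratios were 0.47 ± 0.20, -0.08 ± 0.20 and 0.18 ± 0.20. Foxo3, a transcription factor of stress resistance, was the only substrate of 21 past 2-fold with bilberry, where 4.66% of all genes passed higher and 11.3% in either direction, so the count is near the share over all genes. Its ratio was 1.30 ± 0.24 under bilberry, -0.01 ± 0.24 under delphinidin and 0.10 ± 0.24 under cyanidin. A further Foxo3 probe detected on all arrays gave 0.26 ± 0.31, 0.07 ± 0.27 and -0.43 ± 0.29, so the probes disagree with bilberry. Under spike-in scaling the first bilberry value turned to -0.23, and with the refitted normexp it was 0.83, inside 2-fold. The probes gave 2.14 and 2.18 with normexp on all spots. The first Foxo3 probe and that of Melk lie in the same central band of array rows as Prkaa2. The remaining substrates, among them acetyl-CoA carboxylase (Acaca, Acacb), hormone-sensitive lipase (Lipe) and Ulk1, lay inside 2-fold with each treatment, except that Cry1 passed with bilberry under normexp on all spots and 15 of the 21 substrates were past 2-fold lower under spike-in scaling. The bilberry median was 0.03 with normexp on all spots, 0.20 under quantile normalization and -1.16 under spike-in scaling. The cyanidin median turned to -0.06 with all probes of a gene averaged.

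Regulators that bind AMPK and the phosphatases that act on it had values for 11 of 11 genes. Of the 10 measured with bilberry, Sesn2 alone passed 2-fold, higher, as did 4.66% of all genes. Sesn2 encodes sestrin 2, a stress-induced protein that promotes AMPK activity. Its scaled log2 level was 3.73 under DMSO, 4.91 under bilberry, 4.23 under delphinidin and 4.16 under cyanidin. The ratios were 1.18 ± 0.20, 0.51 ± 0.20 and 0.43 ± 0.20, and a further probe gave 1.44 ± 0.20, 0.36 ± 0.20 and 0.39 ± 0.20, while the first bilberry value turned to -0.35 under spike-in scaling. The first probe was inside 2-fold with bilberry under quantile normalization, at 0.92, and with normexp on all spots, at 0.57, where the further probe had 1.28 and 0.89. The medians of this list were 0.38, 0.02 and 0.15, and the first turned to -0.10 with normexp on all spots. Enzymes of adenine nucleotide metabolism, which set the AMP and ATP levels that AMPK reads, had 12 of 15 genes measured and none past 2-fold. Their medians were 0.26, -0.03 and 0.00, and the value farthest from 0 was 0.67 ± 0.21 for Ak4, a mitochondrial adenylate kinase, with bilberry. With normexp on all spots the bilberry median turned to -0.13, and Ak4, at 1.13, Ak5 and Ckb passed 2-fold higher. Over the 4 lists beside the upstream kinases, the 4 genes past 2-fold with bilberry, of 53 measured, were all higher, against 4.66% of all genes past 2-fold higher and 11.3% in either direction, and no gene of these lists passed with delphinidin or cyanidin. Under spike-in scaling the direction was the opposite, with no gene of these lists past 2-fold higher with bilberry and 38 past 2-fold lower. None of the 4 genes was among those, and Nuak2, at 1.07, and Melk, at 1.25, passed with delphinidin. Melk, just inside 2-fold with delphinidin, also passed there under quantile normalization, at 1.01, and with scaling to the median of detected probes.

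**Figure D5:**
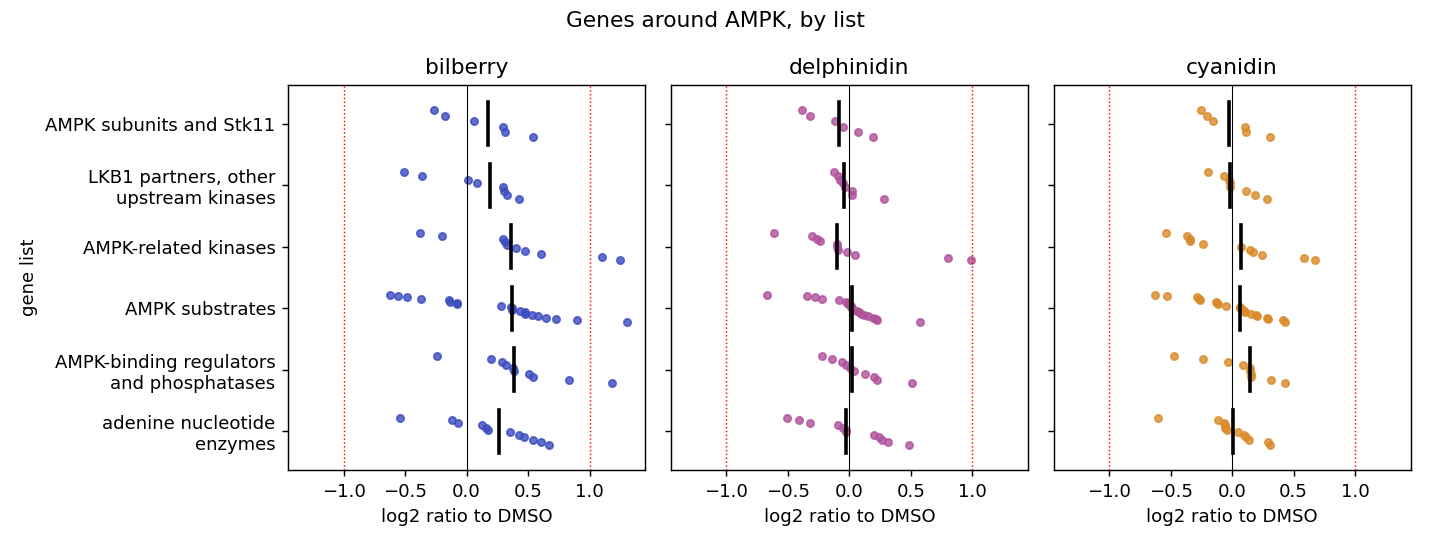
Log2 ratio to DMSO of the genes of 6 lists, 1 point a gene by its brightest probe, for genes detected on both arrays. Black bars are list medians and dotted lines 2-fold. With bilberry the 4 points beyond the dotted line are Nuak2, Melk, Foxo3 and Sesn2, and no point lies beyond it with delphinidin or cyanidin. Under spike-in scaling these 4 bilberry values lie below 0, and of the 4 only Nuak2 stays past 2-fold with both normexp fits and quantile normalization.

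Markers of cell types differed between these arrays too. With bilberry, the adipocyte genes Adipoq (adiponectin) and Slc2a4 (the insulin-regulated glucose transporter GLUT4) had log2 ratios of -1.07 and -1.54. They were the only 2 of the 10 past 2-fold, and 6 of the 10 were above 0, among them Cebpa at 0.50, Plin1 at 0.39, Cidec at 0.17 and Pparg at 0.15, with a median of 0.06. With normexp on all spots Adipoq had -0.69, Slc2a4 0.08 and the median -0.46, with 1 of the 10 above 0. Under quantile normalization 2 of the 10 were above 0, the median was -0.21, and Fabp4 was past 2-fold lower too, while with the refitted normexp Slc2a4 alone passed. Under spike-in scaling all 10 were past 2-fold lower, with a median of -1.47. The summed adipocyte level was 323 with bilberry against 439 under DMSO, 482 under delphinidin and 525 under cyanidin, in units of the array's 75th percentile. Fabp4, a fatty acid binding protein, made up 137 and 265 of the bilberry and DMSO sums. Its 3 probes had bilberry ratios of -0.95, -0.88 and -1.25, of which the first, the brightest, stands for the gene. The preadipocyte and fibroblast sum was 992 under DMSO, 1082 under bilberry, 920 under delphinidin and 864 under cyanidin. The bilberry sum was below that of DMSO with normexp on all spots, at 648 against 925, as it was under quantile normalization and spike-in scaling. Of the 10 genes of this list, 4 were above 0 under bilberry, 5 under delphinidin and 1 under cyanidin, at medians of -0.06, -0.06 and -0.23. Thy1, the only one past 2-fold as processed here, had ratios of -1.20, -0.94 and -0.87, while Col1a2 had 0.54 and Col1a1 0.42 with bilberry. With normexp on all spots 0 of the 10 were above 0 with bilberry, the median was -0.68, and Fn1 passed 2-fold lower too. The bilberry median was -0.33 under quantile normalization, and 9 of the 10 were past 2-fold lower under spike-in scaling. Of 12 muscle genes, Tnnt3 had -2.10 with bilberry, -1.42 with the refitted normexp and -0.19 with normexp on all spots. Of 7 macrophage genes, 3 were detected on each array, while Ptprc, Adgre1 and Itgam were not, and with bilberry the 3 had -0.09 for Cd68, -0.16 for Lyz2 and 1.16 for Csf1r. The Csf1r value was 0.72 with the refitted normexp, 2.44 with normexp on all spots and -0.37 under spike-in scaling, and 2 further Csf1r probes were detected on no array. Endothelial genes were detected for 0 of 6 with DMSO and bilberry and 1 of 6 with each anthocyanidin. The part of cell composition in the AMPK values was not tested.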

How the data were processed

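Total RNA of 3T3-L1 cells on day 2 was labelled with 1 dye and hybridized to 1 Agilent mouse array per condition. The authors read the scanned images with Feature Extraction (9.5.3.1 in the methods, 9.5.1.1 in the file header) and deposited the processed signal, an intensity with background subtracted, for 43379 non-control spots. The deposited table of the series held the same values. The authors analysed their data in GeneSpring GX 7.3.1, and the scaling to the 75th percentile is not in the deposited values.

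Here each array was divided by its 75th percentile over non-control spots. Marked spots were left out (1801 probes lacked a value on at least 1 array), spots of a probe averaged and log2 taken. A probe was detected when all its spots were well above background, and called when past 2-fold and detected on both arrays. No test was possible with 1 array per condition. The number of arrays limits the precision. The median SD of replicate spots within an array was 0.033 to 0.039 log2. Coordinates are those of the files (mm8). No mm8 annotation was used, so exon positions are not given. Gene names are those of the files, updated by RefSeq accession (GRCm38.p6) for 24375 probes.

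The members and lists were chosen with earlier results of these data known. Named by rule were all member probes. List genes were named when past 2-fold against DMSO in at least 1 treatment, or otherwise the gene farthest from 0. The 3 genes most like the member with the widest range, as processed here, were named too. Other genes, among them Cbarp, Srebf1 and further list and marker genes, were named outside this rule. Alternatives were normexp background correction (all spots, or without spots marked for local background), quantile normalization, other scalings, detection rules, thresholds of 1.5 and 3, marked spots kept and other probe rules. The Prkab1 and Prkab2 difference, the values of other probes of list genes, and the alternatives for list genes, their sums and the other probe pairs were chosen after seeing the data. Only the 2-fold call was checked on simulated data, with planted changes well past 2-fold and small noise, so their recovery was close to certain beforehand. Python 3.11.15, numpy 2.4.6, pandas 2.3.3, matplotlib 3.10.9, R 4.3.3 and limma 3.58.1 were used.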

Additional observations from a re-analysis of the deposited data

How the results depend on the processing

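With bilberry, 7 of the 8 measured member probes passed 2-fold under spike-in scaling, all lower, and Prkaa2 alone passed, higher, as 1 of 11 with no detection requirement and 1 of 9 with detection required on at least 1 of both arrays. With no detection requirement 1 probe, also Prkaa2, passed with delphinidin and 1 with cyanidin, both lower and on values at background. The other 44 of 49 counts past a threshold stayed at 0, and 8 of 8 detection counts did not move by over 1.5 times. Several of these could not move. The deposited table held the same values, no member spot was marked, and a threshold of 3 cannot raise a count of 0. With a positive and significant signal as the rule, the DMSO count was 9, since Prkaa2 was then detected with DMSO too. The bilberry difference of Prkab1 and Prkab2 was 0.30 with normexp on all spots, where the fitted background mean of the bilberry array was -345 against -5.65 without spots marked for local background, and 8 of the 9 values under normexp or quantile normalization lay within the software error of the reported value. The other settings cannot move this difference, since a scaling factor cancels in it, the deposited table held the same values and no spot of either probe was marked. With normexp on all spots the bilberry shifts of Prkag1 relative to Prkag2 reversed, to -0.94 and -0.76. Probes detected on no array rose with bilberry under that setting too, such as the further Melk probe, at 2.61. Of 192 alternative ratios of single probes, 161 moved by less than the software error and 31 by more. The 161 include those from the deposited table and with marked spots kept, which equal the reported ratios by construction. The median over the 6 measured member genes with bilberry was -0.02 under quantile normalization, -0.17 with normexp on all spots and -1.36 under spike-in scaling. Of the 4 list genes past 2-fold with bilberry, Sesn2 was not past it under quantile normalization, Melk and Sesn2 with normexp on all spots, Foxo3 with the refitted normexp and all 4 under spike-in scaling. No paired analysis was possible because each condition had 1 array, and for the same reason no replicate could be left out. Signal over background limits Prkaa2, Prkag3 and the dimmer Prkag2 probe.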
